A study of Drosophila melanogaster with 6 samples.

Results

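Messenger RNA of adult Drosophila melanogaster heads was compared between miR-210 mutant flies, carried under the line name M22-3 in the labels, and w1118 flies, the white-eyed laboratory strain used as the control, with 3 samples per genotype. The genes described here are 8 genes of lipid carriage: the lipoprotein genes Mtp, apolpp and Apoltp, the lipoprotein receptor genes LpR1 and LpR2, the lipocalin genes GLaz and NLaz, and the acid lipase gene mag. They were chosen by name from the 13541 genes of the authors' deposited table, and 8 of 8 names were found. The labels used here give no age, sex, allele or rearing condition for either genotype, and they name no allele or treatment that both genotypes share. Whether each sample holds its own batch of flies is not stated in the labels, and p-values here describe the spread among these 6 samples alone, which may be technical.

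In insects, fat travels through the hemolymph on lipophorin, a lipoprotein that is built in the fat body around the proteins encoded by apolpp and is loaded and unloaded many times without being degraded. Mtp encodes the microsomal triglyceride transfer protein, which lipidates lipoproteins as they are made, and Apoltp encodes the lipid transfer particle, which moves lipid on to and off lipophorin. LpR1 and LpR2 are relatives of the vertebrate low-density lipoprotein (LDL) receptor that act in uptake of neutral lipid by tissues. GLaz and NLaz, named Glial Lazarillo and Neural Lazarillo, are small secreted lipid carriers related to vertebrate apolipoprotein D, with known roles in stress resistance. mag, or magro, encodes a lipase of the gut that acts on triacylglycerol and sterol esters.

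Each value below is a normalized count, which is a read count divided by the size factor of its library. The deposited table gives the authors' mean of each genotype, and the single libraries behind these means were recovered arithmetically for 7 of the 8 genes. apolpp, the most abundant, could not be recovered. Recovered libraries carry no sample number and are called deepest, middle and shallowest within their genotype. Reads in recovered genes were 9698476, 7895384 and 6734463 for the mutant, against 17086355, 10024895 and 9384237 for w1118. The deepest library of each genotype stood apart from the others. Over 8287 genes with a mean of at least 50, the log2 ratio of the deepest library to the mean of the others had a Spearman rho of 0.873 between mutant and control, a description across genes of shared libraries. This ratio followed gene length, with a rho of 0.721 in the mutant and 0.744 in w1118. The heads carried their defining transcripts: ninaE, the main rhodopsin gene, had authors' means of 185443 in the mutant and 590062 in w1118.

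Of the lipoprotein genes, Mtp was higher in mutant heads than in w1118 heads, and the change of no other member passed the test. Mtp met the authors' threshold, an adjusted p under 0.05, and 0 of the other 6 tested genes did. Thus 1 of 7 tested genes rose and 0 fell, where 4.46% of all 11155 tested genes changed and 2.56% rose. At an unadjusted p under 0.05 in the authors' deposited table, 4 of the 7 were higher, namely Mtp, Apoltp, GLaz and NLaz, and 0 were lower, against 6.49% of all tested genes higher. The median log2 fold change over the 7 was 0.38, against -0.04 over all tested genes. mag was treated as not tested, its adjusted p being listed at 1. In these heads, more cells of a type and more RNA per cell cannot be told apart.

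Mtp had 2477, 2628 and 3806 normalized counts in the deepest, middle and shallowest mutant libraries, against 1563, 1645 and 1774 in the w1118 libraries. All 3 mutant libraries lay above all 3 control libraries, and the shallowest mutant library was well above the other mutant libraries. The means were 2970 ± 728 in the mutant and 1661 ± 106 in w1118 (SD, n = 3 each), a 1.79-fold difference. In the authors' deposited table the log2 fold change was 0.84 (adjusted p = 0.0185). limma, a linear model fitted to log2(normalized count + 1) over all recovered genes, gave 0.81 ± 0.20 (SE) with an adjusted p of 0.177, so the call ended there. That fit called 1.02% of genes and 0 of the 6 members in it, of which 3 (Mtp, Apoltp and GLaz) had an unadjusted limma p under 0.05 and were higher, against 5.53% of all genes in that fit. With the deepest library of each genotype as a term in limma, Mtp was called higher (adjusted p = 0.00338), and with the deepest libraries left out it was called too (0.89, adjusted p = 0.02). Mtp lies on chromosome 2L from 20919094 to 20922876 (minus strand, dm6), and its single annotated transcript has 6 exons.

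**Figure D1:**
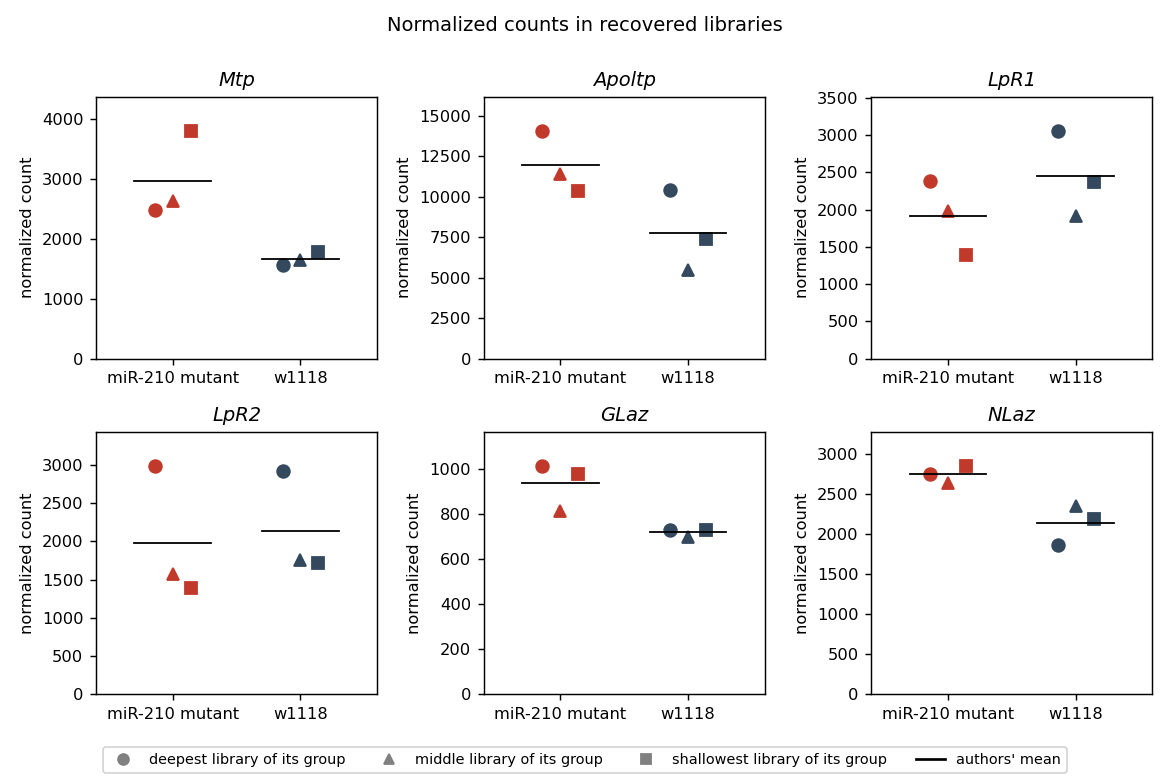
Normalized counts (vertical axes, each from 0) of the 6 members with a mean of at least 1 that were recovered, in the miR-210 mutant (left, red) and w1118 (right, dark) libraries. Symbols mark the deepest, middle and shallowest library of each genotype and lines the authors' means. All 3 mutant libraries exceed all 3 w1118 libraries for Mtp, GLaz and NLaz, and the deepest libraries stand high for LpR2 in both genotypes.

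apolpp, which encodes the structural apolipoproteins of lipophorin, had the highest level of the 8 genes. Its authors' mean was 73990 in the mutant and 40730 in w1118, 1.82-fold higher in the mutant. The log2 fold change of 0.86 in the authors' deposited table was slightly above that of Mtp, yet its unadjusted p was 0.0547 and its adjusted p 0.436. The spread between libraries is not shown for this gene, since its means lie above the range in which single libraries could be recovered. apolpp lies on chromosome 4 from 1060969 to 1077273 (plus strand, dm6). Its exons share 96 bases (0.816% of their length) with those of Zyx on the opposite strand and 676 bases with an annotated HB transposon copy, and strandedness of the libraries is not given in the sources used here. Zyx itself had authors' means of 904 in the mutant and 1266 in w1118 (the authors' deposited table lists an adjusted p of 0.84).

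Apoltp had 14086, 11413 and 10339 normalized counts in the deepest, middle and shallowest mutant libraries, against 10424, 5449 and 7362 in w1118. The deepest library was the highest of each genotype, and the deepest w1118 library just exceeded the lowest mutant library, so the genotypes overlapped. The means were 11946 ± 1930 in the mutant and 7745 ± 2509 in w1118 (SD, n = 3 each), 1.54-fold higher in the mutant. In the authors' deposited table the log2 fold change was 0.63 (unadjusted p = 0.0435, adjusted p = 0.386), and limma gave 0.66 with a 95% interval from 0.032 to 1.29 (adjusted p = 0.414). Between the deepest libraries alone it was 0.43 on the log2 scale, against 0.78 among the other 4 libraries. With the deepest library as a term in limma the gene was called higher (adjusted p = 0.00681), as it was with the deepest libraries left out (0.78, adjusted p = 0.0226). Apoltp spans 21848 bases of chromosome 2L, from 9634179 to 9656026 (plus strand, dm6), with 13330 exonic bases, the longest transcript among the members.

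The receptor genes LpR1 and LpR2 are neighbours on the minus strand of chromosome 3R, LpR2 from 25698727 to 25740465 and LpR1 from 25741348 to 25763105 (dm6), separated by 882 bases. They are paralogs, and how reads matching both were counted is not given in the sources used here. The annotation lists 10 transcripts for LpR1 and 9 for LpR2, which gene-level counts do not separate. Neither gene passed the authors' threshold (0 of 2 changed, and 0 of 2 at an unadjusted p under 0.05).

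LpR1 had 2383, 1977 and 1391 normalized counts in the deepest, middle and shallowest mutant libraries, against 3058, 1918 and 2368 in w1118. The genotypes overlapped, with the middle w1118 library below the deepest and middle mutant libraries. Its means were 1917 ± 499 in the mutant and 2448 ± 574 in w1118 (SD, n = 3 each). In the authors' deposited table the log2 fold change was -0.35 (adjusted p = 0.824), and the limma estimate of -0.36 had a 95% interval from -0.99 to 0.27 (adjusted p = 0.72). With the deepest library as a term that interval was -0.67 to -0.048, and limma's adjusted p was 0.111. Between the deepest libraries alone it was -0.36 on the log2 scale, and the same among the other 4.

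LpR2 had 2986, 1577 and 1391 normalized counts in the deepest, middle and shallowest mutant libraries, against 2922, 1756 and 1718 in w1118. In each genotype the deepest library was far above the others, and these deepest libraries were close to each other. The means were 1985 ± 872 in the mutant and 2132 ± 685 in w1118 (SD, n = 3 each), a difference well inside the spread. In the authors' deposited table the log2 fold change was -0.10 (adjusted p = 0.98), and the limma estimate of -0.14 had a 95% interval from -0.98 to 0.69 (adjusted p = 0.925). That interval holds changes of either sign.

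Neither lipocalin gene passed the authors' threshold (0 of 2), and their estimated differences were small and close to each other. GLaz had 1013, 816 and 980 normalized counts in the deepest, middle and shallowest mutant libraries, against 729, 698 and 729 in w1118. The mutant libraries all lay above the w1118 libraries, which were almost identical to one another. The means were 936 ± 106 in the mutant and 719 ± 18.3 in w1118 (SD, n = 3 each), 1.30-fold higher in the mutant. In the authors' deposited table the log2 fold change was 0.38 (unadjusted p = 0.031, adjusted p = 0.318), and limma gave 0.38 with a 95% interval from 0.0032 to 0.75 (adjusted p = 0.437). GLaz lies on chromosome 2R from 13163959 to 13168032 (minus strand, dm6).

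NLaz had 2753, 2634 and 2846 normalized counts in the deepest, middle and shallowest mutant libraries, against 1856, 2348 and 2187 in w1118. Here too the genotypes did not overlap, and the deepest w1118 library was the lowest of all. The means were 2744 ± 106 in the mutant and 2130 ± 251 in w1118 (SD, n = 3 each), 1.29-fold higher in the mutant. In the authors' deposited table the log2 fold change was 0.37 (unadjusted p = 0.0363, adjusted p = 0.348), and limma gave 0.37 with a 95% interval from -0.0025 to 0.75 (adjusted p = 0.443). Between the deepest libraries alone it was 0.57 on the log2 scale, against 0.27 among the other 4. NLaz lies on chromosome 2L from 1359837 to 1361821 (minus strand, dm6).

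With the deepest library as a term, limma called GLaz (adjusted p = 0.0407) and NLaz (adjusted p = 0.0377) higher as well. In that fit 4 of the 6 members were called, all higher in the mutant, against 7.44% of all genes called higher. With the deepest library of each genotype left out, 2 of 6 were called, Mtp and Apoltp, against 3.77% of all genes called higher. The GLaz estimate was then 0.33 (adjusted p = 0.198) and the NLaz estimate 0.27 (adjusted p = 0.236). Libraries did not overlap between genotypes for 3 of the 6 members both recovered and tested, Mtp, GLaz and NLaz, each higher in the mutant. Of 10836 recovered and tested genes, 9.27% were higher without overlap.

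**Figure D2:**
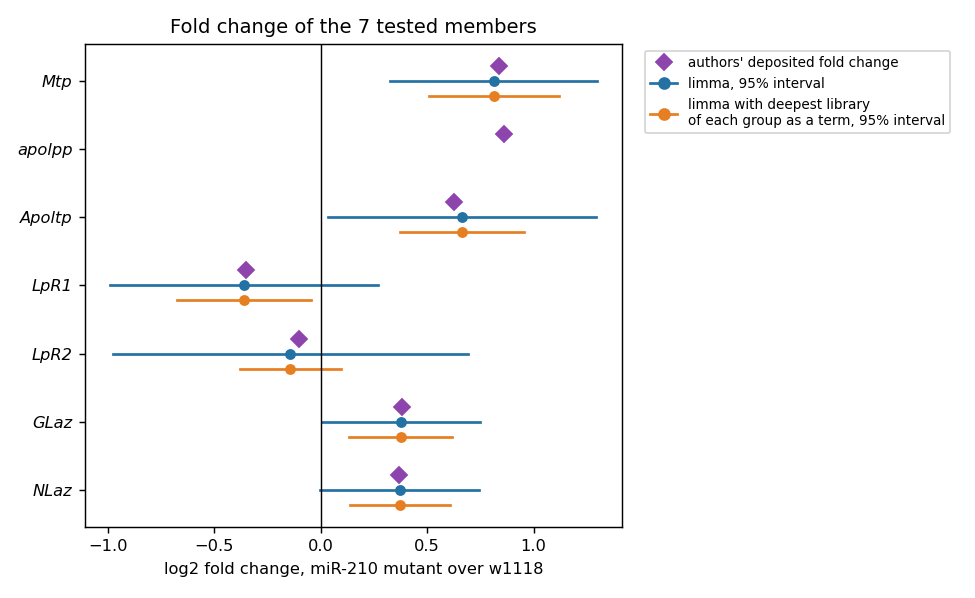
Log2 fold change, miR-210 mutant over w1118 (horizontal axis), of the 7 tested members: the authors' deposited values (diamonds), limma estimates (blue) and limma estimates with the deepest library of each genotype as a term (orange), with 95% intervals. The term is balanced between genotypes, so it cannot move the estimates, and the intervals narrow with it. For LpR2 both intervals include 0, and apolpp has no limma estimate.

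mag was nearly absent from these heads. It had 1, 0 and 0 reads in the deepest, middle and shallowest mutant libraries, against 3, 0 and 0 reads in w1118, and a count of 0 allows up to 3 reads in a library, for counting error only. No fold is given. Of 5 gut markers, the digestive protease genes alphaTry, betaTry and Jon65Aiii had 95.2, 37.2 and 208 normalized counts in the shallowest mutant library and at most 3.48 in any other library of either genotype, while mag was at 0 in that library. The protease gene Jon99Ciii had 13.4 there and 12.8 in the deepest w1118 library, and the maltase gene Mal-A1 had 144 there, its lowest value, against up to 242 in w1118. The part of gut RNA in the values of the other members was not tested.

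Levels of different genes can be compared per kilobase of exon. On that scale apolpp led with 6288 normalized counts per kilobase in the mutant and 3462 in w1118 (authors' means), followed by NLaz with 2389 in the mutant and 1854 in w1118. Mtp, Apoltp and GLaz came next, with Apoltp overlapping both of the others in each genotype, while Mtp lay above GLaz in the mutant libraries and overlapped it in w1118. Their libraries spanned 845 to 1299, 776 to 1057 and 671 to 834 normalized counts per kilobase in the mutant, and 533 to 605, 409 to 782 and 574 to 600 in w1118. LpR2 (252 to 542 in the mutant, 312 to 530 in w1118) and LpR1 (210 to 359 in the mutant, 289 to 461 in w1118) had lower means and overlapped each other. In w1118 both also overlapped Apoltp. The ratio of the deepest library to the others followed gene length, and its part in these spans was not tested. The NLaz level per kilobase was 3.10 times the GLaz level in the mutant and 3.13 times in w1118. The apolpp level per kilobase was 6.20 times the Mtp level in the mutant and 6.11 times in w1118. No test was made of these ratios.

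The members differed in how far the deepest library departed from the others. For LpR2 the log2 ratio of the deepest library to the mean of the others was 1.01 in the mutant and 0.75 in w1118, and for LpR1 0.50 in the mutant and 0.51 in w1118. Apoltp had 0.37 in the mutant and 0.70 in w1118. The remaining recovered members lay near or below 0: GLaz had 0.17 in the mutant and 0.032 in w1118, NLaz had 0.0068 in the mutant and -0.29 in w1118, and Mtp had -0.38 in the mutant and -0.13 in w1118. Over all genes the medians were -0.045 in the mutant and -0.039 in w1118, and the central bulk of genes, without the lowest and highest 5%, lay between -0.78 and 1.44 in the mutant and between -0.84 and 1.39 in w1118. The term for the deepest library is balanced between genotypes, so it cannot move limma's fold changes and alters only their errors. The fit without the deepest libraries gives the fold changes among the other libraries. The part of this library difference in the fold changes was not tested further.

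**Figure D3:**
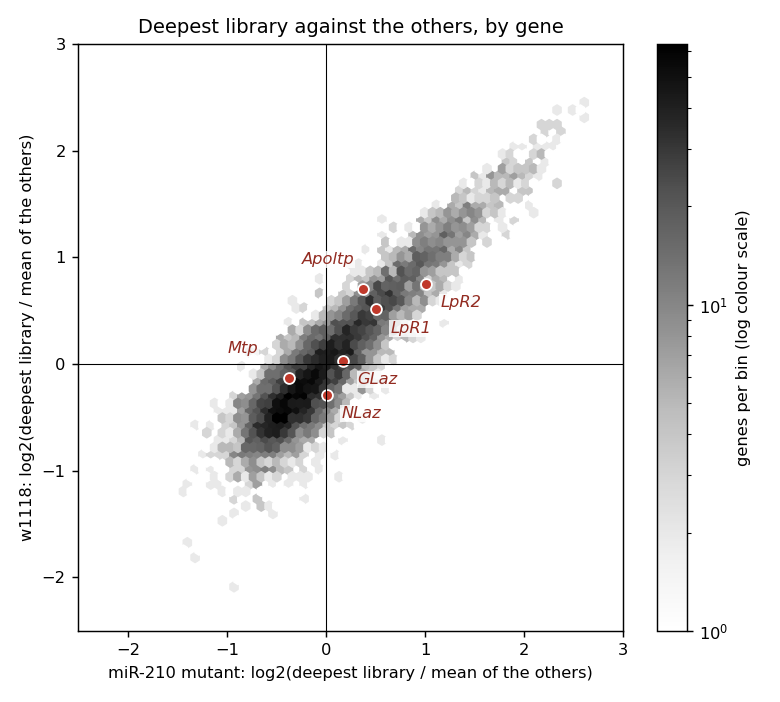
Log2 ratio of the deepest library to the mean of the other libraries in the miR-210 mutant (horizontal axis) and in w1118 (vertical axis), for 8287 recovered genes with a mean of at least 50 (grey, darker for more genes) and 6 members (red). LpR1, LpR2 and Apoltp lie in the upper right, where the deepest library was high in both genotypes, and Mtp in the lower left.

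The 6 wider lists mix lipid carriers with lipases, receptor relatives and assembly partners. Of their 40 tested genes 2 rose and 0 fell (5%), close to the 4.46% changed among all tested genes, and their median log2 fold change was 0.046. Of 4 tested genes of assembly and related carriers, cv-d, a vitellogenin-like lipoprotein gene needed for wing crossveins, rose by 0.71 on the log2 scale, with an adjusted p of 0.00389 in the authors' deposited table. It had 3439, 2888 and 3301 normalized counts in the mutant libraries, against 2061, 1744 and 2095 in w1118, without overlap. At an unadjusted p under 0.05, 1 of these 4 was higher and 1 lower. The lower one was the lipocalin gene Karl, at -0.69 on the log2 scale (adjusted p of 0.0976 by the authors' deposited table). Karl had 267, 270 and 234 normalized counts in the mutant libraries, against 325, 491 and 431 in w1118, without overlap. For Karl limma gave an adjusted p of 0.247, and with the deepest library as a term it called the gene lower (adjusted p = 0.0112). Of 9 tested sterol-handling genes, Npc2h, a member of the Niemann-Pick type C2 family, rose by 1.25 on the log2 scale, with an adjusted p of 0.00948 in the authors' deposited table. It had 4412, 5883 and 7979 normalized counts in the mutant libraries, against 1802, 2604 and 3282 in w1118, again without overlap. limma without the term gave adjusted p-values of 0.137 for cv-d and 0.16 for Npc2h, and with the term it called both, at 0.00192 for cv-d and 0.000235 for Npc2h.

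The remaining lists held no changed gene in the authors' deposited table. Of 6 tested genes among the LDL receptor relatives and their chaperone gene boca, 0 passed, and 0 had an unadjusted p under 0.05; the endocytic receptor gene LRP1 had the largest deposited log2 fold change of these, 0.32 (adjusted p = 0.923 by the authors' deposited table). Of 12 tested acid lipase relatives of mag 0 passed and 1 was lower at an unadjusted p under 0.05, and Lip1 had -2.27 (adjusted p of 0.472, from the authors' deposited table) at authors' means of only 1.18 in the mutant and 5.85 in w1118. Of 7 class B scavenger receptor genes 0 passed and 1 was higher at an unadjusted p under 0.05, and ninaD, a carotenoid uptake receptor gene, had -0.54 (adjusted p of 0.707, from the authors' deposited table). Of 2 tested fatty acid carriers 0 passed, and 0 at an unadjusted p under 0.05, with fabp at 0.22 (adjusted p of 0.942, from the authors' deposited table).

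**Figure D4:**
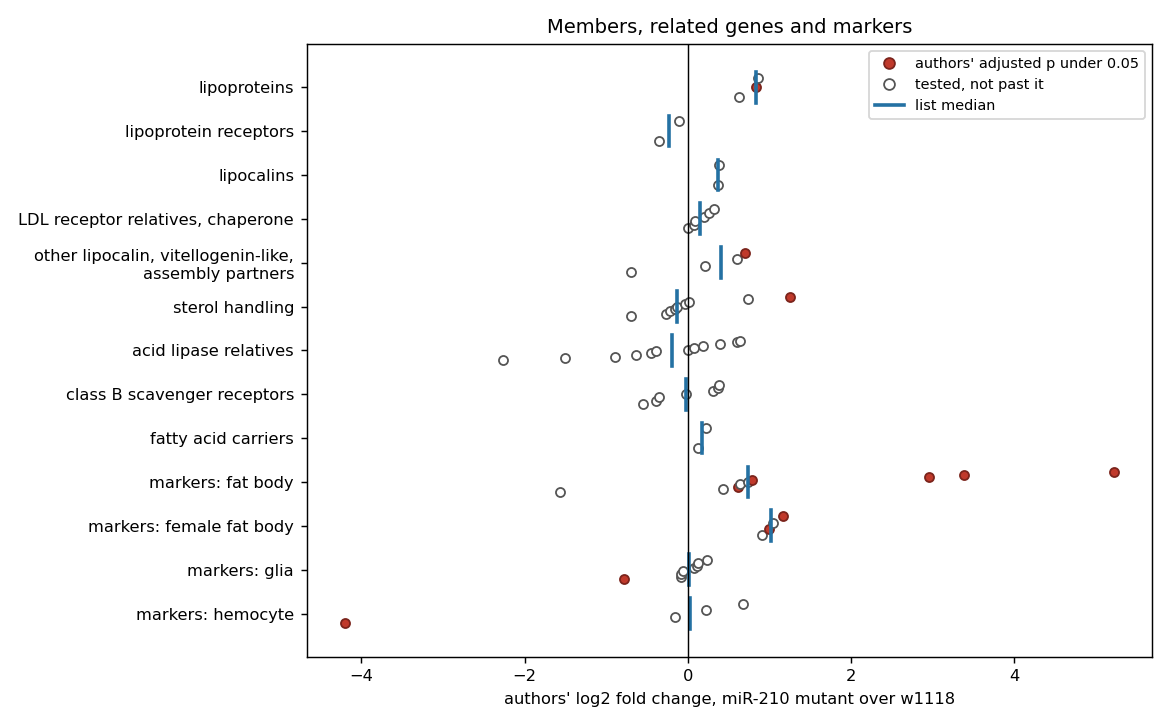
Authors' log2 fold change, miR-210 mutant over w1118 (horizontal axis), of each tested gene in the member groups, the related lists and 4 marker lists. Filled points passed the authors' adjusted p of 0.05, open points did not, and blue bars are list medians (0.84 for the lipoprotein genes, -0.23 for the receptor genes, 0.37 for the lipocalin genes and 0.73 for fat body markers).

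Fat body, the tissue that makes lipophorin, had several markers higher in the mutant. Of 9 fat body markers 5 rose (Lsp2, Lsp1beta, tobi, Tps1 and AkhR) and 0 fell in the authors' deposited table, with a median log2 fold change of 0.73. Of the 4 of these 5 that limma could test, it called 1, Lsp2 (adjusted p = 0.0482), and with the deepest library as a term it called 1, AkhR (adjusted p = 0.00573). Fbp1 was lower in the mutant without overlap, at authors' means of 2.98 in the mutant and 9.17 in w1118 (adjusted p of 0.607 by the authors' deposited table). The 8 recovered ones summed to 25891, 25467 and 33324 normalized counts in the deepest, middle and shallowest mutant libraries, against 17031, 14561 and 16254 in w1118, and none was at 0 in all libraries of a genotype. The genotypes did not overlap, and the shallowest mutant library, in which Mtp was highest and Apoltp the lowest of the mutant libraries, had the highest sum. Lsd-1 (10771, 10973 and 10453 in the mutant libraries) and fat-spondin (7035, 8536 and 11217) were its largest parts. Neither passed the authors' threshold (adjusted p of 0.117 and 0.109). limma without the term called neither (adjusted p of 0.249 for Lsd-1 and 0.281 for fat-spondin). With the deepest library as a term it called both higher (0.00478 for Lsd-1 and 0.00279 for fat-spondin). That fit also called Ilp6 higher (adjusted p = 0.026) and did not call Fbp1 (adjusted p = 0.143). Of the genes that rose, Lsp2 had 608, 123 and 1068 in the mutant libraries, Lsp1beta 1455, 688 and 4273, and tobi 792, 286 and 1513. AkhR varied less, with 3919, 3571 and 3273. Mtp and Apoltp together summed to 16563, 14041 and 14145 in the mutant libraries, against 11987, 7095 and 9136 in w1118. Of 4 female fat body genes, the yolk protein genes Yp2 and Yp3 had log2 fold changes of 1.00 and 1.16 and both rose, at adjusted p-values of 0.0293 for Yp2 and 0.0302 for Yp3 by the authors' deposited table, and 4 of 4 were higher at an unadjusted p under 0.05. The share of fat body tissue or of females in each sample is not given in the labels used here, and its part in the levels of Mtp, apolpp and Apoltp was not tested.

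Markers of glia, the cells GLaz is named for, had a median near 0. Of 8 glia markers 0 rose and 1 fell (alrm, -0.79, adjusted p of 0.00297 by the authors' deposited table and 0.13 by limma), the median was 0.011, and the 7 recovered ones summed to 19202 to 25382 in the mutant and 21599 to 26814 in w1118. With the deepest library as a term limma called alrm lower (adjusted p = 0.00129). Of 4 hemocyte markers 0 rose and 1 fell (NimC1, a phagocytosis receptor gene, -4.20, adjusted p of 4.5e-37 by the authors' deposited table), and their sums spanned 7692 to 10265 in the mutant, against 6779 to 7747 in w1118. At an unadjusted p under 0.05, 1 was higher and 1 lower. The higher one, Hml, made up most of these sums and was higher without overlap (0.67, adjusted p of 0.0744 by the authors' deposited table). For Hml limma gave an adjusted p of 0.243, and 0.00211 with the deepest library as a term. Of 8 neuron and photoreceptor markers 0 rose and 3 fell (trp, chp and ninaE), with a median of -0.97 in the authors' deposited table. At an unadjusted p under 0.05 there, 5 were lower and 0 higher. The 4 neuron markers recovered (elav, nSyb, Syt1 and brp) summed to 6749 to 18081 in the mutant and 12979 to 31935 in w1118. Both genotypes had their highest neuron sum in the deepest library. nSyb was lower in the mutant without overlap, and the other neuron markers overlapped. limma gave adjusted p-values from 0.303 (nSyb) to 0.836 (elav). With the deepest library as a term it called all 4 lower (adjusted p of 0.00075 for nSyb, 0.0257 for Syt1, 0.0283 for elav and 0.044 for brp). The part of these markers in the members' values was not tested.

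**Figure D5:**
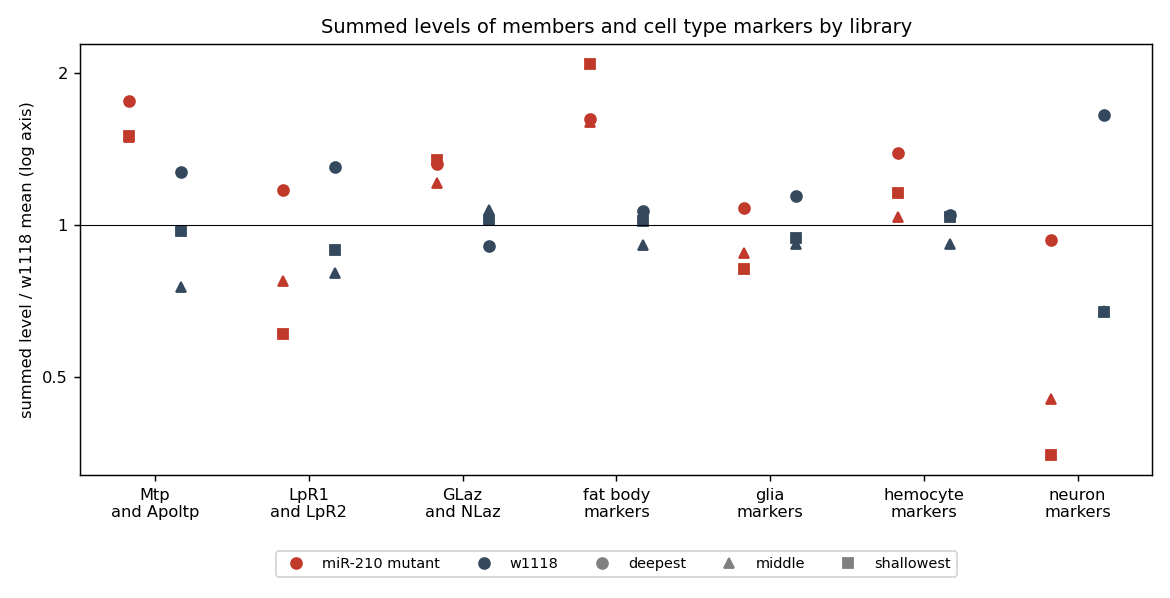
Summed normalized counts of recovered members and cell type markers in each library, divided by the w1118 mean (vertical axis, log scale), for the miR-210 mutant (left of each pair, red) and w1118 (right, dark). Mtp with Apoltp, the lipocalin pair and fat body markers lie higher in the mutant without overlap, while the receptor pair, glia and neuron markers overlap.

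The recovered genes most like Mtp across the 6 libraries were UGP, Pgd and DNaseII. After centring each gene's log2 values, their root mean square distances from Mtp were 0.0861, 0.0926 and 0.0971 on the log2 scale, the smallest among 8296 recovered genes with a mean of at least 50, Mtp included, of which 9 had no defined ratio in the comparison of deepest libraries. UGP had 10205, 9402 and 13200 normalized counts in the deepest, middle and shallowest mutant libraries, against 5983, 6007 and 6195 in w1118. The distance covers both genotypes, so the choice itself favours genes with a fold change near that of Mtp. The fold changes of the chosen genes are therefore given as a description only. The authors' deposited table gives log2 fold changes of 0.85 for UGP (adjusted p = 0.00166), 0.72 for Pgd (adjusted p = 0.11) and 0.88 for DNaseII (adjusted p = 0.00907).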

How the data were processed

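RNA of adult heads was extracted with Trizol and sequenced on an Illumina platform, per the labels. The submitters' processing notes list FastQC, HISAT2, featureCounts, DESeq and build dm6 but neither their roles nor versions. The deposited table gives for each genotype a mean signal (counts divided by size factors, averaged by the authors), a log2 fold change, and p-values and adjusted p-values, per the file headers. Recomputing the Benjamini-Hochberg adjustment on 11155 genes gave the deposited adjusted p-values (largest deviation 3.8e-15), and 2386 genes listed at 1 were treated as not tested. Gene coordinates are those of the table, and matched Ensembl release 115 (dm6) for 8 of 8 members.

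No file with counts per sample was used, so the authors' calls are the main result. Each mean of at most 15000 was searched for whole read counts of 3 libraries, to within rounding of the 15 printed digits. Exactly 1 solution was found for 13288 of 13307 mutant and 13233 of 13323 w1118 means, and 13222 genes (97.6%) were recovered in 6 libraries. The search limit was chosen after the table was seen, and both the search and the fit were tested on simulated data. The search recovered 99.9% (mutant) and 99.7% (w1118) of simulated means exactly and 0 wrongly. With 200 changed genes simulated, limma found 88% of 2-fold changes, and 7.84% of its calls were false. The simulated counts held no shift of the deepest library, so they could not test the fit under that shift. Summed over recovered genes, the means made up 39.0% (mutant) and 42.2% (w1118) of all normalized counts. With its trend and robust options, limma 3.58.1 (R 4.3.3) was fitted to log2(normalized count + 1) of 11649 genes whose mean reached 1, a scale that understates changes of low genes. Of the 8 members, apolpp was not recovered and mag fell below that mean. Mutant and w1118 were compared without covariates, and the alternatives are given at the end.

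The members, lists and tests were chosen with earlier results of these data known. All members were named, with each gene of another list past the adjusted p of 0.05 or, where none was, the one with the largest absolute fold change. For each recovered member past that threshold the 3 nearest genes were named. Gene sequences were not used here.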

Additional observations from a re-analysis of the deposited data

How the results depend on the processing

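The count of changed members was 1 at the authors' adjusted p under 0.05 and under 0.1, 0 under 0.01, and 0 by limma on the recovered libraries. limma called 0 members at pseudocounts of 0.5, 1 and 5, with no filter, with a mean of at least 10, with equal totals, and with any 1 library left out (0 to 0). It called 4 with the deepest library of each genotype as a term and 2 with those libraries left out. That term assumes the same shift in both genotypes. Mtp kept its direction in 16 of 16 alternatives, with limma's adjusted p above 0.05 in 12 of them. Since the Mtp libraries did not overlap between genotypes, leaving out or splitting libraries could not reverse that direction. The log2 fold change of Mtp ranged from 0.62 (without the shallowest mutant library) to 0.93 (without the deepest mutant library) with 1 library left out. Apoltp (0.44 to 0.90), GLaz (0.32 to 0.47), NLaz (0.28 to 0.45) and LpR1 (-0.54 to -0.15) kept their direction with 1 library left out. For GLaz and NLaz, whose libraries did not overlap either, that direction could not reverse. LpR2 ranged from -0.48 to 0.11 with 1 library left out, reversing without the shallowest mutant library (0.071) and without the deepest w1118 library (0.11), and also within the deepest libraries (0.031); the cause was not tested. Equal totals, taken over recovered genes only, moved the median of all genes in the limma fit from -0.053 to -0.099. No paired analysis was possible because the recovered libraries carry no replicate number. With at most 3 reads in a library, mag could not be compared, and the abundance of apolpp kept its libraries from being recovered.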

Other observations

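The deposited table also assigns protein domains to genes, and the families of the members were looked at after their values were seen. All 4 tested genes with the domain label Vitellogenin_N, which are Mtp, apolpp, Apoltp and cv-d, had positive log2 fold changes in the authors' deposited table, from 0.63 to 0.86, and 2 of them, Mtp and cv-d, passed the authors' threshold. Among all 11155 tested genes, 45.8% had positive fold changes, 2.56% rose and 4.46% changed in either direction. Of 14 tested genes with the label Ldl_recept_a, which include LpR1 and LpR2, 6 had positive fold changes, 0 rose and 1 fell. The gene that fell was Culd, with authors' means of 4218 in the mutant and 18175 in w1118 and a log2 fold change of -2.11 (adjusted p of 2.8e-13 by the authors' deposited table). Npc2g, of the same gene family as Npc2h, had 8933, 11460 and 16714 normalized counts in the mutant libraries, against 6364, 7620 and 8240 in w1118, without overlap (log2 fold change 0.74, adjusted p of 0.191 by the authors' deposited table). Npc2a, of the same family, had 2860, 4817 and 5310 normalized counts in the mutant libraries, against 4346, 8435 and 8209 in w1118, with overlap (log2 fold change -0.69, adjusted p of 0.48 by the authors' deposited table). limma with the deepest library as a term gave adjusted p-values of 0.00903 for Npc2g, higher, and 0.00121 for Npc2a, lower in the mutant.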
